A study of Mus musculus with 14 samples.

Results

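The genes described here are 10 that transcription factors of the NF-kB family are known to induce, followed in a mouse lens epithelial cell line with and without TGFβ. They are the feedback inhibitors Nfkbia and Tnfaip3, the NF-kB subunit genes Nfkb1, Nfkb2 and Relb, the ubiquitin ligase gene Birc3, the receptor gene Tnfrsf9, the adhesion genes Vcam1 and Icam1, and the cyclooxygenase gene Ptgs2. They were taken by name from a list that was chosen with earlier results of these data known. All 10 were found among the 40853 gene identifiers of the deposited tables. Of the 10, 8 averaged 1 TPM or more over the libraries and were tested, where TPM is a transcript level scaled for length and library size. Birc3 and Icam1 were below that level and are given as values. Gene positions below are on GRCm39, as the authors deposited them.

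The cells were αTN4-1, a line from the lens of mice carrying a viral T antigen under a crystallin promoter. Its 7 derived lines were labelled Vector, WT-CREB and S133A-CREB (neither K nor R314A), KCREB and S133A-KCREB, and R314A-CREB and S133A/R314A-CREB. The growth protocol gives neomycin selection but does not name the K lines. CREB activates genes through cAMP response elements. S133A removes a serine known as the target of protein kinase A, R314A changes a residue of the basic leucine zipper domain, and KCREB is a dominant negative form known to have lost DNA binding. From every line there was a library of control cells and another of cells kept for 24 h with 20 ng/mL TGFβ in medium free of serum, 14 libraries in all. Whether control cells also lacked serum is not in the labels, so the effects of TGFβ and of serum withdrawal cannot be told apart. The labels also do not say whether a line is a clone or a pool.

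NF-kB dimers are held in the cytoplasm by inhibitor proteins until a kinase complex marks these for destruction. In the canonical pathway the released dimers contain RelA and p50, and in the noncanonical pathway the p100 precursor is processed so that RelB and p52 reach the nucleus. Several of the induced genes encode inhibitors or subunits of the pathway itself, so their transcripts are commonly read as a record of its activity, although other factors also act on them.

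Creb1 itself went against 4 of the labels, if these are read as lines with added CREB. Its control level was 20.8 TPM in Vector, 25.8 in the line labelled KCREB and 34.0 in the line labelled S133A-KCREB. It was 11.6 TPM in the line labelled WT-CREB, 9.04 in R314A-CREB, 6.59 in S133A-CREB and 7.92 in S133A/R314A-CREB, all below Vector. A direction drawn from any of these 4 lines therefore rests on the label alone. Whether transcripts of an introduced CREB were counted under Creb1 was not tested. Coverage per FPKM, a measure of depth, was 5.05 to 10.1 over the libraries (median 6.70), and 12545 to 13081 genes reached 1 TPM. Of 14 lens epithelial markers, 10 averaged 1 TPM or more, led by Cryab at 653.6 and Cdh2 at 180.4, while Foxe3, Gja1 and Cdh1 were at or near 0 in these tables and Pitx3 averaged 0.488.

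With TGFβ, transcripts of 4 of the 8 tested members rose and those of 1 fell. Nfkbia, Nfkb2, Relb and Ptgs2 rose, and Vcam1 fell. Over all 12927 tested genes, 24.1% rose and 21.4% fell by the same rule, an adjusted p under 0.05 in limma with the line as a block. At an unadjusted p under 0.05 there were 6 of 8 members, Tnfrsf9 being the sixth, and 53.4% of genes. TGFβ moved a large share of all transcripts, so the members' count has to be read against those shares. Since the members were chosen with earlier results of these data known, the shares are no test of them as a set. The median log2 difference of the 8 members was 0.30, and that of all tested genes was 0.02. In bulk RNA, fewer cells of a type and less RNA per cell cannot be told apart.

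Nfkbia (chr12:55536194-55539432, minus strand) encodes IκBα, the inhibitor that is resynthesized after NF-kB enters the nucleus and that ends the canonical response. In control cells its level was 19.2 TPM in Vector, 22.9 in KCREB, 29.0 in S133A/R314A-CREB, 30.2 in R314A-CREB, 31.2 in S133A-KCREB, 45.5 in S133A-CREB and 53.1 in WT-CREB. With TGFβ it was 30.2 TPM in Vector, 39.9 in KCREB, 53.3 in S133A/R314A-CREB, 47.0 in R314A-CREB, 65.3 in S133A-KCREB, 56.4 in S133A-CREB and 52.4 in WT-CREB. It was higher with TGFβ in 6 of 7 lines, and only in WT-CREB, which had the highest control level, was it not. The control and TGFβ ranges overlapped, because lines differed more among themselves than most did with treatment. Within lines the log2 difference was 0.60 ± 0.11 (SE, n = 7, limma adjusted p = 0.00267), and 461 of the 12927 tested genes had a higher value.

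Tnfaip3 (chr10:18876658-18891158, minus strand) encodes A20, a ubiquitin-editing enzyme that shuts down signalling from TNF and Toll-like receptors to the kinase complex. Its control levels ran from 17.5 to 30.5 TPM with a median of 25.1, and its TGFβ levels from 22.0 to 38.9 with a median of 23.8. It was higher with TGFβ in 5 of 7 lines and lower in R314A-CREB and S133A-CREB. The mean log2 difference was 0.15 with a 95% interval of -0.09 to 0.38 and did not pass the test (limma adjusted p = 0.273).

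Promoter sequences of the 2 inhibitors and of Nfkb2 are shown because these are the members whose start regions hold matches to the NF-kB consensus. The sequences are the 250 bases before the most upstream RefSeq transcription start, on the transcribed strand. Tnfaip3 and Tnfrsf9 had 2 listed starts and Nfkb2 had 3, and their other starts were not searched. Of the 10 members, 7 had an entry, and Nfkb1, Relb and Vcam1 had none. The coordinates are those of GRCm38.p6, an older build than that of the expression tables. Capitals mark matches to the 10-base NF-kB consensus and to the short cAMP response motif TGACG, searched on both strands, where CGTCA is the reverse complement. The windows are chr12:55492648-55492897 on the minus strand for Nfkbia, chr10:19015411-19015660 on the minus strand for Tnfaip3 and chr19:46304487-46304736 on the plus strand for Nfkb2.
Nfkbia: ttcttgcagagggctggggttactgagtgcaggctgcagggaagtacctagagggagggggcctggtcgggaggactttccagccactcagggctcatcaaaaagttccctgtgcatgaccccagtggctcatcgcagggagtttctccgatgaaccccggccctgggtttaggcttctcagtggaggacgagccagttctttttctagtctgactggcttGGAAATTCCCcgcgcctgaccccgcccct
Tnfaip3: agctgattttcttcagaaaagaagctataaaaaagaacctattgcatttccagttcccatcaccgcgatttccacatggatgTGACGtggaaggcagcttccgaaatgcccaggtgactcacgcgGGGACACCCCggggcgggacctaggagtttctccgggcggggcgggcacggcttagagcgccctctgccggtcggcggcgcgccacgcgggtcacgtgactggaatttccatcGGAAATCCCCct
Nfkb2: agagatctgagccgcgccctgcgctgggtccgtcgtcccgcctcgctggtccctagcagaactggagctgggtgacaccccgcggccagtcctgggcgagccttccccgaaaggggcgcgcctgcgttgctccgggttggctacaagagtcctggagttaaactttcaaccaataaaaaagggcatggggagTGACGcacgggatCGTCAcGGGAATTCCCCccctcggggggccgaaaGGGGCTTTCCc

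Nfkbia held 1 consensus match, GGAAATTCCC, which began 29 bases before the start. Tnfaip3 held GGGACACCCC at 125 bases and GGAAATCCCC at 12 bases before the start, and a TGACG at 168. Nfkb2 held 3 matches, of which GGGAATTCCC at 39 bases and GGAATTCCCC at 38 overlap each other and GGGGCTTTCC lies at 11, with TGACG at 58 and CGTCA at 45. In windows of 300 bases, which add the 50 bases after the start, 4.51% of 32851 mouse promoters held the NF-kB consensus and 20.8% held TGACG on either strand. These promoters count each listed start of a gene. The full palindrome TGACGTCA was in 1.79% of them and in none of the 7 member windows. The windows of Birc3, Tnfrsf9 and Icam1 held neither motif. A match is a run of letters and was not measured as a site, and 1 of the 3 genes shown, Tnfaip3, did not pass the test for TGFβ while the other two did.

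**Figure D1:**
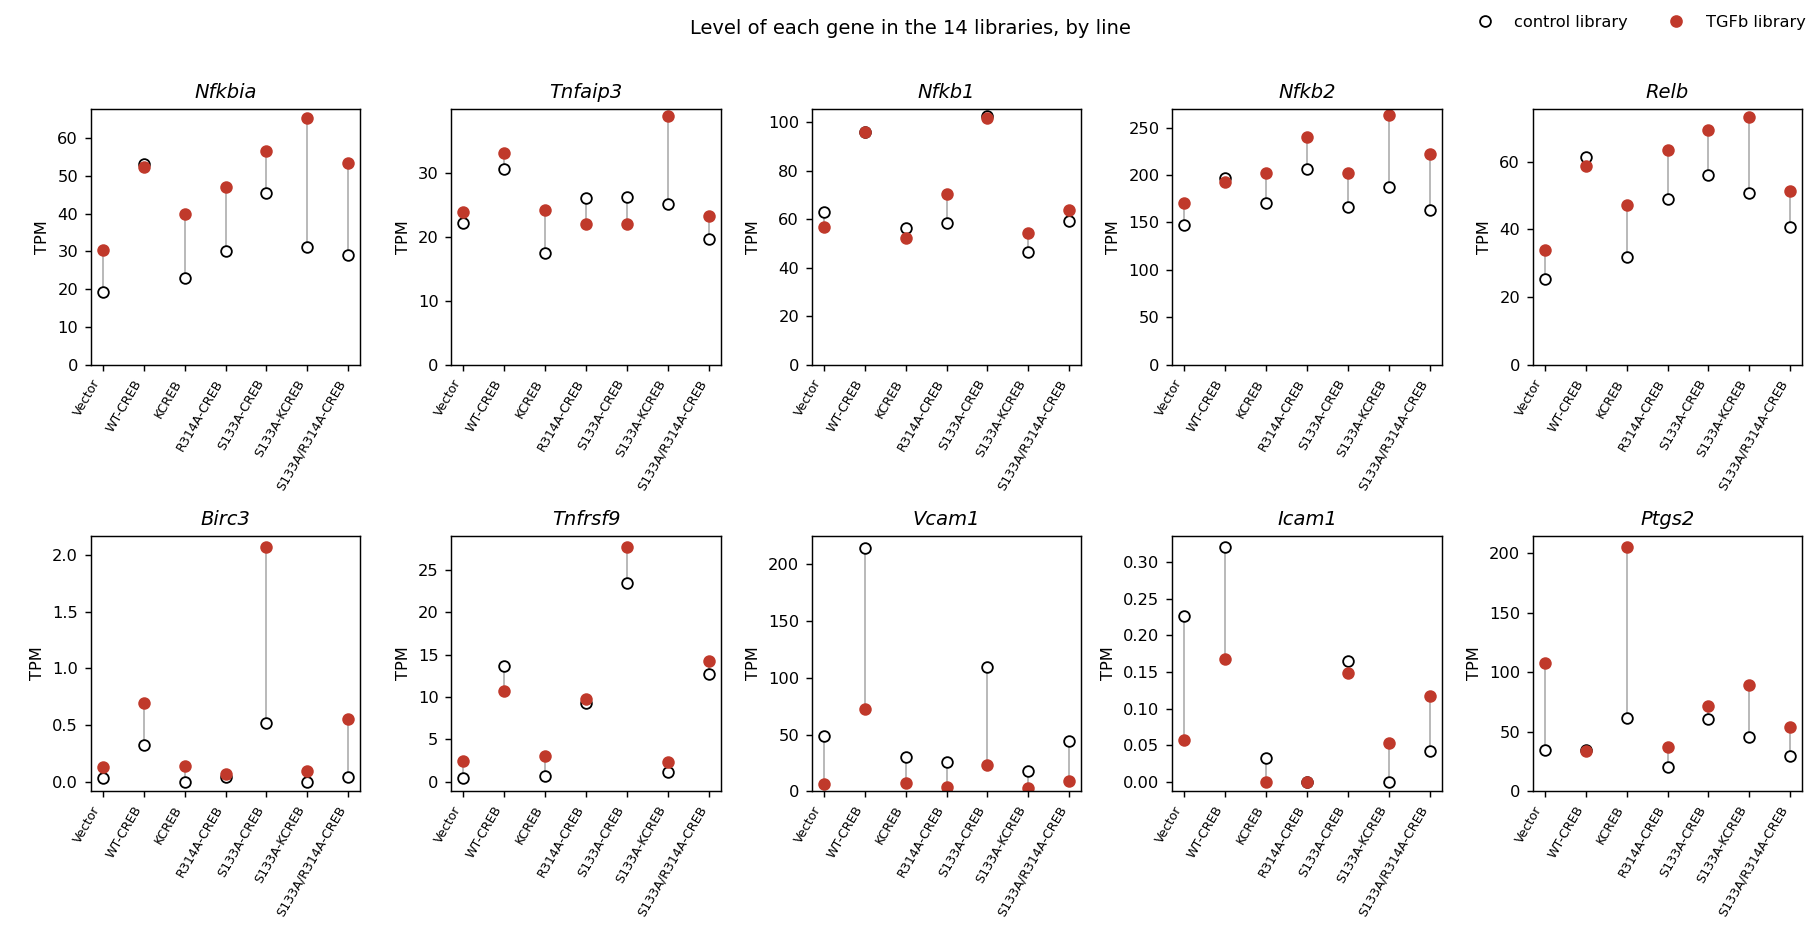
Levels of the 10 genes in TPM, each panel on its own linear axis, with the 7 lines along the x axis, the control library as a white point and the TGFβ library as a red point. Vcam1 is lower with TGFβ in every line, Nfkbia is higher in 6 of 7, and Birc3 and Icam1 stay near 0 in most libraries.

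Nfkb2 (chr19:46285478-46300839, plus strand) encodes p100, which is an inhibitor of RelB until it is processed to p52. It had the highest mean of the 10 genes, 195 TPM over the libraries, with control levels of 147.1 to 206 (median 169.9) and TGFβ levels of 170.3 to 263.6 (median 202.3). It was higher with TGFβ in 6 of 7 lines, by 0.27 ± 0.06 on the log2 scale (SE, n = 7, limma adjusted p = 0.0063), and in WT-CREB the difference was -0.03. The genes 4833438C02Rik and Psd lie over Nfkb2 on the opposite strand, at no more than 18.9 and 27.2 TPM in any library, and whether counting used the strand is not given in the sources used here.

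Relb (chr7:19340142-19363363, minus strand) encodes the subunit that p100 retains. Its control levels ran from 25.4 to 61.5 TPM with a median of 49.0, and its TGFβ levels from 34.0 to 73.1 with a median of 58.6. Vector was the lowest line under both conditions. Relb rose by 0.34 ± 0.07 (SE, n = 7, limma adjusted p = 0.00396), with differences of 0.31 to 0.55 in 6 lines and of -0.07 in WT-CREB.

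Nfkb1 (chr3:135290416-135397728, minus strand) encodes p105, the precursor of p50. It did not pass the test for TGFβ, with a mean log2 difference of 0.05, a 95% interval of -0.08 to 0.18, and higher levels in 4 lines and lower ones in 3 (limma adjusted p = 0.532). The spread of Nfkb1 was between lines. It stood at 96.0 TPM in WT-CREB and 102.6 in S133A-CREB in control cells, and at 96.0 and 101.7 with TGFβ, while the other 5 lines lay between 46.5 and 62.8 in control cells and between 52.3 and 70.3 with TGFβ. These 2 lines thus did not overlap with the rest in any library, as was the case for 2.92% of tested genes that were higher in them. This grouping of lines was noticed from the values and carries no test.

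Of the other subunit genes, Rela, the activating partner of p50, was higher in 7 of 7 lines and rose by 0.32 ± 0.07 (SE, n = 7, limma adjusted p = 0.00501), from 95.5 to 143.5 TPM in control cells to 128.3 to 173 with TGFβ. Rel, best known from lymphocytes, had levels of 7.82 to 15.8 TPM and 8.78 to 13.4, a log2 difference of -0.04 ± 0.06 that did not pass (adjusted p = 0.663). Of the 5 subunit genes, members included, 3 rose and none fell, against 24.1% and 21.4% of all tested genes.

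Birc3 (chr9:7848698-7873199, minus strand) encodes cIAP2, a ubiquitin ligase of TNF receptor complexes. Its mean over the libraries was 0.336 TPM, and it was listed at 0 in 2 of them, the control libraries of KCREB and S133A-KCREB. The highest control levels were 0.522 TPM in S133A-CREB and 0.326 in WT-CREB, and the highest TGFβ levels were 2.06 in S133A-CREB, 0.691 in WT-CREB and 0.553 in S133A/R314A-CREB. The TGFβ library had the higher value in 7 of 7 lines. These levels are too low for a fold change, and a 0 in such tables can be a failed estimate.

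Tnfrsf9 (chr4:151004612-151030561, plus strand) encodes 4-1BB, a costimulatory receptor that signals to NF-kB and is known mainly from T cells. In control cells it was at 0.403 TPM in Vector, 0.641 in KCREB and 1.15 in S133A-KCREB. It was at 9.28 TPM in R314A-CREB, 12.8 in S133A/R314A-CREB, 13.6 in WT-CREB and 23.5 in S133A-CREB. With TGFβ it was at 2.45 TPM in Vector, 3.09 in KCREB, 2.39 in S133A-KCREB, 9.81 in R314A-CREB, 14.3 in S133A/R314A-CREB, 10.7 in WT-CREB and 27.7 in S133A-CREB. The first 3 lines lay below the other 4 in every library, which was so for 0.897% of tested genes, again a grouping seen in the values. These are also the lines in which Creb1 was not below Vector, and the part of that in the result was not tested.

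The TGFβ difference of Tnfrsf9 was 0.49 on the log2 scale with a 95% interval of 0.04 to 0.93, and it did not pass after adjustment (limma adjusted p = 0.0704). The differences were 1.30 in Vector and 1.32 in KCREB, 0.66 in S133A-KCREB, 0.07 to 0.23 in the 3 other mutant lines and -0.33 in WT-CREB. Without WT-CREB the mean was 0.62 with an adjusted p of 0.027 in limma, so that line decides the call. At these low levels the single differences depended on the scale. That in Vector was 2.34 with a pseudocount of 0.1 and 0.66 from FPKM, and that in KCREB was 2.11 and 0.72, so both were below 2-fold from FPKM. Tnfsf9, the ligand of this receptor, was at 18.4 ± 4.90 TPM in control cells and 15.9 ± 3.05 with TGFβ (SD, n = 7), a difference that did not pass (limma adjusted p = 0.327).

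Vcam1 (chr3:115903669-115923337, minus strand) encodes an immunoglobulin-family ligand for the integrin VLA-4 and showed the largest TGFβ difference of the 8 tested members. In control cells it was at 18.2 TPM in S133A-KCREB, 25.6 in R314A-CREB, 30.1 in KCREB, 44.2 in S133A/R314A-CREB, 48.6 in Vector, 109.7 in S133A-CREB and 214.7 in WT-CREB. With TGFβ it was at 2.86 TPM in S133A-KCREB, 4.08 in R314A-CREB, 7.22 in KCREB, 8.86 in S133A/R314A-CREB, 6.52 in Vector, 23.5 in S133A-CREB and 72.3 in WT-CREB. It was lower with TGFβ in 7 of 7 lines, as were 15.9% of tested genes. WT-CREB and S133A-CREB remained the highest and the next highest line under TGFβ, and the WT-CREB library with TGFβ was still above the control libraries of 5 lines.

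Vcam1 fell by 2.18 on the log2 scale (SE 0.12, 95% interval -2.45 to -1.92, n = 7, limma adjusted p = 2.26e-05). Only 12 of the 12927 tested genes had a lower value. The differences of the single lines ran from -2.72 in Vector to -1.56 in WT-CREB, with an SD of 0.367. Vcam1 was also past 2-fold down in each of the 7 lines taken alone. Of the 10530 genes that averaged 5 TPM or more, the share past 2-fold down was 2.64% in Vector, 0.674% in WT-CREB, 3.58% in KCREB, 2.35% in R314A-CREB, 1.46% in S133A-CREB, 2.42% in S133A-KCREB and 2.66% in S133A/R314A-CREB.

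Icam1 (chr9:20927236-20940110, plus strand) encodes the ligand of the leukocyte integrin LFA-1 and is induced by NF-kB in many epithelia and in endothelium. It averaged 0.0949 TPM, was at most 0.32 TPM, and was listed at 0 in 4 of the 14 libraries. It was higher with TGFβ in 2 lines, lower in 4 and at 0 in both libraries of R314A-CREB. At these levels no difference was detectable.

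**Figure D2:**
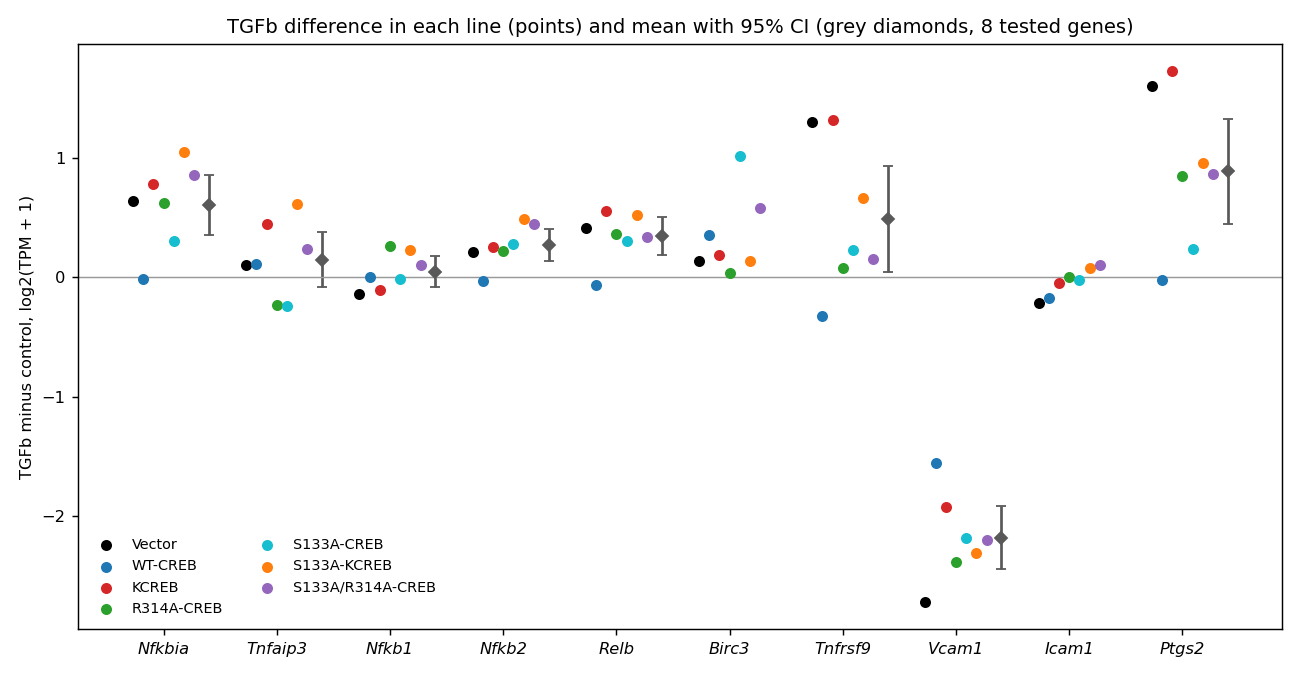
TGFβ minus control on the log2(TPM + 1) scale for the 10 genes, with 1 point per line. For the 8 tested genes the mean of the 7 lines is added with its 95% interval from limma. Vcam1 lies below 0 in all 7 lines, and for Nfkbia, Nfkb2, Relb, Tnfrsf9 and Ptgs2 the WT-CREB point lies below 0 while the other 6 lie above.

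Ptgs2 (chr1:149975782-149983985, plus strand) encodes cyclooxygenase-2, the inducible enzyme that commits arachidonic acid to prostaglandins, and both NF-kB and CREB are known to act on its promoter. In control cells it was at 34.9 TPM in Vector, 34.4 in WT-CREB, 61.3 in KCREB, 20.2 in R314A-CREB, 60.5 in S133A-CREB, 45.8 in S133A-KCREB and 29.2 in S133A/R314A-CREB. With TGFβ it was at 107.8 TPM in Vector, 33.8 in WT-CREB, 205.3 in KCREB, 37.0 in R314A-CREB, 71.4 in S133A-CREB, 89.6 in S133A-KCREB and 53.8 in S133A/R314A-CREB. KCREB was the highest line under both conditions. WT-CREB had the lowest TGFβ level and was the only line that was not higher with TGFβ.

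Ptgs2 rose by 0.89 ± 0.20 (SE, 95% interval 0.45 to 1.32, n = 7, limma adjusted p = 0.00572), and 203 tested genes had a higher value. Its differences spread more than those of the other risers, with an SD of 0.642 and a range from -0.02 in WT-CREB to 1.73 in KCREB. Where transcription of Ptgs2 began in these cells was not measured, so before and after refer to the RefSeq start alone. No match to the NF-kB consensus or to TGACG lay in the 250 bases before that start, and the CGTCA nearest to it lay 14 bases after it. That stretch, bases 2 to 31 after the start at chr1:150100032-150100061 on the plus strand of GRCm38.p6, is shown with CGTCA in capitals because it is the single match to the short cAMP response motif in the window.
Ptgs2: gagtcaccactaCGTCAcgtggagtccgct

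For 5 of the 8 tested members WT-CREB was the exception under TGFβ. Nfkbia, Nfkb2, Relb, Tnfrsf9 and Ptgs2 were each higher with TGFβ in 6 of 7 lines, and for all 5 the remaining line was WT-CREB. Of all tested genes 30.8% were higher in 6 or more lines, a share that includes those higher in 7 of 7. The share with WT-CREB as the only exception was not counted. This pattern was noticed from the values and carries no test. No tested member was higher in 7 of 7 lines, against 18.5% of tested genes. WT-CREB also had fewer genes past 2-fold with TGFβ than any other line, 0.456% up and 0.674% down of the 10530 genes. In single lines, the members past 2-fold up were Tnfrsf9 and Ptgs2 in Vector (background 2.22%) and in KCREB (background 3%), and Nfkbia in S133A-KCREB (background 1.42%), where the log2 difference of 1.04 was just under 1 with median-of-ratios scaling and from FPKM. No member was past 2-fold up in WT-CREB, R314A-CREB (background 1.53%), S133A-CREB (0.655%) or S133A/R314A-CREB (1.6%).

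Compared with Vector, members were more often past 2-fold up than down. Each such comparison sets 1 library against 1 and carries no test, and all of them share the Vector libraries. Of 96 member values (8 genes, 6 lines, control and TGFβ), 19 were past 2-fold up and 3 were past it down. These values are not independent of each other, and Tnfrsf9 met the filter of 5 TPM only through lines in which it was high. In control cells Vector was the lowest line for Nfkbia (19.2 TPM), Nfkb2 (147.1), Relb (25.4) and Tnfrsf9 (0.403), so every line lay above this 1 library for these genes. The share of all genes past it was 0.769% to 5.12% up and 1.66% to 5.85% down, depending on the comparison.

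In control cells Nfkbia, Relb, Tnfrsf9 and Vcam1 were past 2-fold up in WT-CREB (background 4.34%) and the same 4 genes in S133A-CREB (background 5.12%). The log2 differences in WT-CREB were 1.43 for Nfkbia, 1.24 for Relb, 3.38 for Tnfrsf9 and 2.12 for Vcam1. In S133A-CREB they were 1.21 for Nfkbia, 1.11 for Relb, 4.12 for Tnfrsf9 and 1.16 for Vcam1. With TGFβ, Tnfrsf9 and Vcam1 were still past 2-fold up in WT-CREB (background 3%), and Relb, Tnfrsf9 and Vcam1 in S133A-CREB (background 4.49%). Relb in S133A-CREB was close to the limit, and from FPKM it was 0.98 in control cells and 0.93 with TGFβ. No member was past 2-fold down in S133A-CREB, where 2.15% of genes were in control cells and 2.05% with TGFβ.

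Tnfrsf9 accounted for 8 of the 19 values past 2-fold up. It reached the mean of 5 TPM set for these counts only through the lines in which it was high. In Vector, KCREB and S133A-KCREB it was at 0.403 to 3.09 TPM. Its log2 difference from Vector in control cells was 2.87 in R314A-CREB (background 1.82%) and 3.29 in S133A/R314A-CREB (background 2.54%), against 0.23 in KCREB and 0.61 in S133A-KCREB. With Vector at 0.403 TPM these values depended on the scale. The difference in R314A-CREB was 4.22 with a pseudocount of 0.1 and 1.81 from FPKM, and that in S133A/R314A-CREB was 4.68 and 2.15. With TGFβ it was 1.65 in R314A-CREB (background 1.8%) and 2.15 in S133A/R314A-CREB (background 1.77%). No member was past 2-fold down in S133A/R314A-CREB, where 2.42% of genes were in control cells and 2.35% with TGFβ.

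No member was past 2-fold in KCREB in either condition, where 0.807% of genes were up and 1.93% down in control cells and 0.769% and 1.88% with TGFβ. In S133A-KCREB in control cells Vcam1 was below Vector, at -1.37 on the log2 scale (background 3.11%), and no member was past 2-fold up (background 2.82%). With TGFβ Nfkbia and Relb were past 2-fold up there (background 2.13%), at 1.09 and 1.08, and no member was past it down (background 3.19%).

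Ptgs2 with TGFβ was below Vector by more than 2-fold in WT-CREB, at -1.64 on the log2 scale (background 4.34%), and in R314A-CREB, at -1.52 (background 1.87%). In control cells neither line was past 2-fold for this gene, at -0.02 and -0.76. S133A/R314A-CREB lay just inside the limit, at -0.99. Nfkb2 and Tnfaip3 stayed within 0.69 of Vector on the log2 scale in all 12 comparisons.

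**Figure D3:**
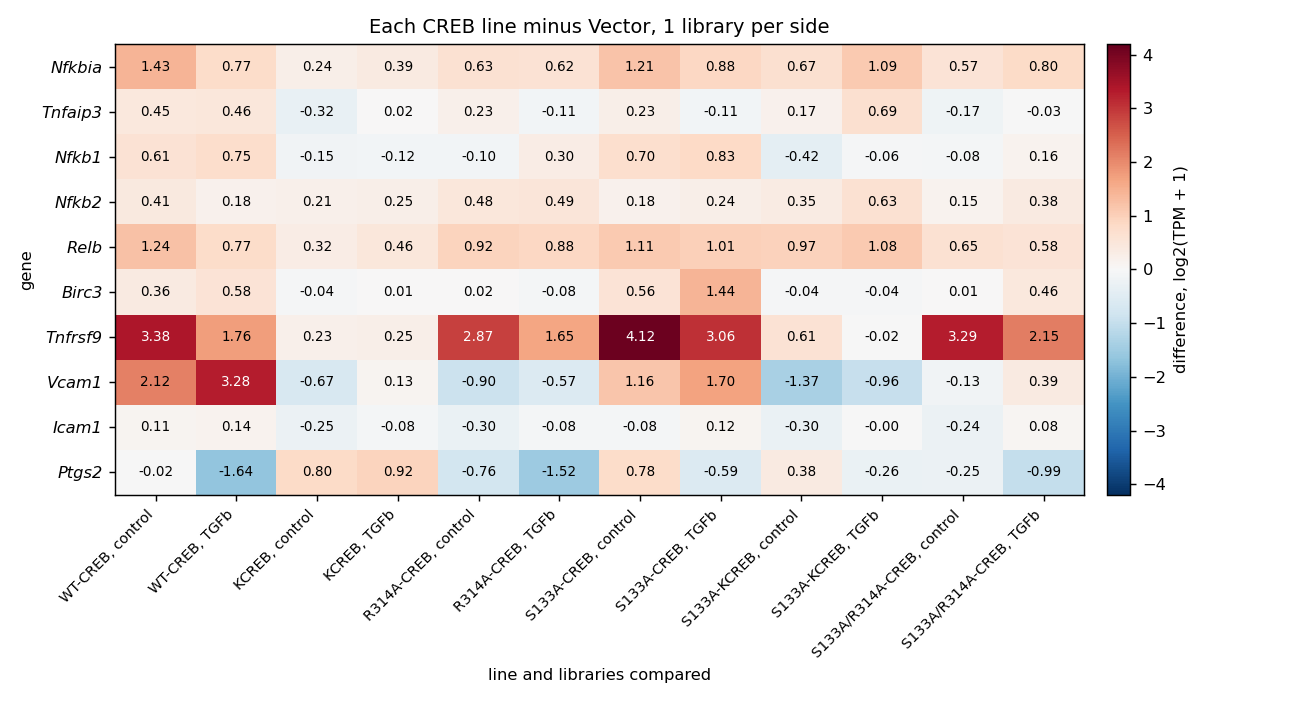
Log2 difference of TPM + 1 between each CREB line and Vector for the 10 genes, in control and TGFβ libraries, with red higher and blue lower than Vector. Vcam1 is highest above Vector in WT-CREB, Tnfrsf9 in S133A-CREB, and the KCREB columns hold no tested gene past 2-fold.

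The 6 CREB lines form 3 pairs with and without S133A, and limma was fitted on the mean of the control and TGFβ values of each line. For S133A, no member and 0% of all tested genes passed at an adjusted p under 0.05. At an unadjusted p under 0.05 there were 0 of 8 members and 5.81% of genes. The estimates ran from -0.43 ± 0.44 for Vcam1 (SE, limma adjusted p = 0.87) to 0.51 ± 0.26 for Tnfrsf9 (adjusted p = 0.809). Vcam1 was at -0.02 without WT-CREB or without S133A-CREB and at -1.08 without R314A-CREB or without S133A/R314A-CREB. Tnfrsf9 was at 0.26 without WT-CREB or without S133A-CREB and at 0.74 without KCREB or without S133A-KCREB. A p that misses the threshold with 6 lines does not show that values did not differ, here or in the other fits of these lines.

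For K the estimates were larger. K against the lines with neither K nor R314A gave 0 of 8 members and 0% of genes at an adjusted p under 0.05, but 3 of 8 members at an unadjusted p under 0.05, against 10.1% of genes. Nfkb1 was lower with K at -0.91 ± 0.16 on the log2 scale (SE, limma adjusted p = 0.277). Tnfrsf9 was lower at -2.82 ± 0.32 (95% interval -3.62 to -2.01, limma adjusted p = 0.232) and Vcam1 at -2.79 ± 0.54 (adjusted p = 0.303). The reference lines, WT-CREB and S133A-CREB, are 2 of those whose Creb1 went against the label. In control cells their differences from Vector were 0.61 and 0.70 for Nfkb1, 3.38 and 4.12 for Tnfrsf9, and 2.12 and 1.16 for Vcam1. Those of KCREB and S133A-KCREB were -0.15 and -0.42 for Nfkb1, 0.23 and 0.61 for Tnfrsf9, and -0.67 and -1.37 for Vcam1. In a fit of all 12 libraries with the line as a random block these 3 genes passed, with limma adjusted p of 0.0303 for Nfkb1, 0.0314 for Tnfrsf9 and 0.0239 for Vcam1, and 0.774% of genes were called lower and 0.317% higher. That fit enters the control and TGFβ libraries of a line as separate values and adds no lines. K differs only between lines, so these p-values do not rest on more lines than those of the line means. The highest estimate was that of Ptgs2, at 0.83 ± 0.43 (limma adjusted p = 0.585), which was 0.07 without KCREB and 1.59 without S133A-KCREB.

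R314A against the same lines also gave no call at an adjusted p under 0.05 (0% of genes), and 2 of 8 members at an unadjusted p under 0.05 against 6.36% of genes. These were Nfkb1, at -0.65 ± 0.16 on the log2 scale (SE, limma adjusted p = 0.737), and Vcam1, at -2.37 ± 0.54 (adjusted p = 0.722). Vcam1 was at -1.40 without R314A-CREB and at -3.34 without S133A/R314A-CREB. The highest estimate was 0.12 for Nfkb2. The K and R314A contrasts share their reference lines, WT-CREB and S133A-CREB, which were the lines highest in Nfkb1 and Vcam1, so their values are not independent of each other.

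Whether the TGFβ difference itself changed with S133A was tested on the differences of the 6 lines. No member and 0% of genes passed at an adjusted p under 0.05 in limma. At an unadjusted p under 0.05 there were 2 members, Nfkbia at 0.28 ± 0.10 and Nfkb2 at 0.26 ± 0.09 on the log2 scale (SE, limma adjusted p = 0.999 for both), against 3.54% of genes. The lowest estimate was -0.27 ± 0.18 for Vcam1, with -0.51 to -0.10 when single lines were left out.

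Other genes of the pathway, from lists of known components, moved in both directions with TGFβ. These lists too were chosen with earlier results of these data known. The shares of each list are to be read against the 24.1% of all tested genes that rose and the 21.4% that fell. Beside the members Nfkbia and Tnfaip3, 13 of 14 listed inhibitor genes were tested, and 2 rose and 3 fell. With these 2 members the median log2 difference was 0.16. Pdlim2, an inhibitor that removes RelA from the nucleus, fell from 62.2 ± 68.5 to 22.6 ± 25.5 TPM (SD, n = 7), a log2 difference of -1.67 (limma adjusted p = 2.89e-04). Traf3, which restrains the noncanonical pathway, rose by 0.33 ± 0.06 (adjusted p = 0.00263), and Tnip2, a partner of A20, by 0.24 ± 0.05 (adjusted p = 0.00488).

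Of 22 genes of the kinase complex and its ubiquitin ligases all but the member Birc3 were tested. Of these 21, 5 rose and 3 fell (median 0.06). The 3 with the smallest p all fell. Traf5, an adaptor of TNF-family receptors, changed by -0.97 ± 0.17, Birc2, which encodes cIAP1, by -0.25 ± 0.06, and the kinase gene Ikbke by -0.34 ± 0.09 on the log2 scale, each lower in 7 of 7 lines.

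Beside the member Tnfrsf9, receptors and adaptors gave 4 that rose and 4 that fell of 17 tested, out of 21 listed. With Tnfrsf9 the median was -0.01. Cd40, a receptor that activates both NF-kB pathways, rose from 1.66 ± 1.76 to 10.9 ± 6.04 TPM (SD, n = 7) and was higher in 7 of 7 lines (limma adjusted p = 0.00101). Tnfrsf12a, the receptor for TWEAK, rose from 644.2 ± 147.0 to 996.4 ± 237.5 TPM (adjusted p = 1.78e-04), and Tlr2 rose by 0.57 ± 0.09 on the log2 scale (adjusted p = 0.00104). Tnfrsf1a, the main receptor for TNF in most cells, was listed at 0 in 11 of 14 libraries and at no more than 0.284 TPM, which in tables of this kind can be a failed estimate.

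Of 12 ligand genes only 2 reached a mean of 1 TPM. Tnf was at no more than 0.096 TPM, Il1a at no more than 0.133 and Il1b at no more than 0.0124 in any library. Tnfsf12, which encodes TWEAK, fell by 0.69 on the log2 scale (limma adjusted p = 3.79e-04), while its receptor gene rose as given above.

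Of 30 other target genes 20 were tested, and 8 rose and 3 fell (median 0.31). Gadd45b, a stress-response gene, rose from 98.8 ± 22.1 to 170.7 ± 32.8 TPM (SD, n = 7, limma adjusted p = 8.87e-05). Mmp9, a matrix protease, rose by 2.55 ± 0.41 on the log2 scale (adjusted p = 0.00137). Bcl2l1, which encodes the survival protein Bcl-xL, fell from 106.5 ± 31.2 to 57.9 ± 5.58 TPM (adjusted p = 9.78e-04). Beside Vcam1, the adhesion list gave 4 that rose and 1 that fell of 10 tested, of 22 listed. Ncam1, a homophilic adhesion gene of neural and other cells, rose by 0.75 ± 0.08, Msn, a linker of adhesion molecules to actin, by 0.57 ± 0.07, and Itgb2, the β chain of the ICAM1-binding integrins, by 1.31 ± 0.17 (limma adjusted p = 2.89e-04, 5.20e-04 and 5.31e-04). The α chain genes Itgal, of LFA-1, and Itgam averaged 0.0158 and 0.0196 TPM. Itga4, the α chain gene of the VCAM1-binding integrin VLA-4, averaged 0.474 TPM.

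Around Ptgs2, 2 of 10 other tested prostaglandin genes rose and 4 fell, of 18 listed. Ptger4, a receptor for prostaglandin E that raises cAMP, fell from 23.4 ± 12.8 to 8.95 ± 6.73 TPM (SD, n = 7, limma adjusted p = 8.74e-05). Ptgds, a prostaglandin D synthase, fell by 0.77 on the log2 scale (adjusted p = 8.42e-04), and Pla2g4a, which releases arachidonic acid from membranes, fell by 0.42 (adjusted p = 0.00228). The 2 that rose were Ptgs1, the constitutive cyclooxygenase (0.94, adjusted p = 0.00984), and Ptges3 (0.24, adjusted p = 0.00867), both named after their values were seen. Ptges, the inducible prostaglandin E synthase that usually works with cyclooxygenase-2, averaged 0.0114 TPM and was listed at 0 in 10 libraries.

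**Figure D4:**
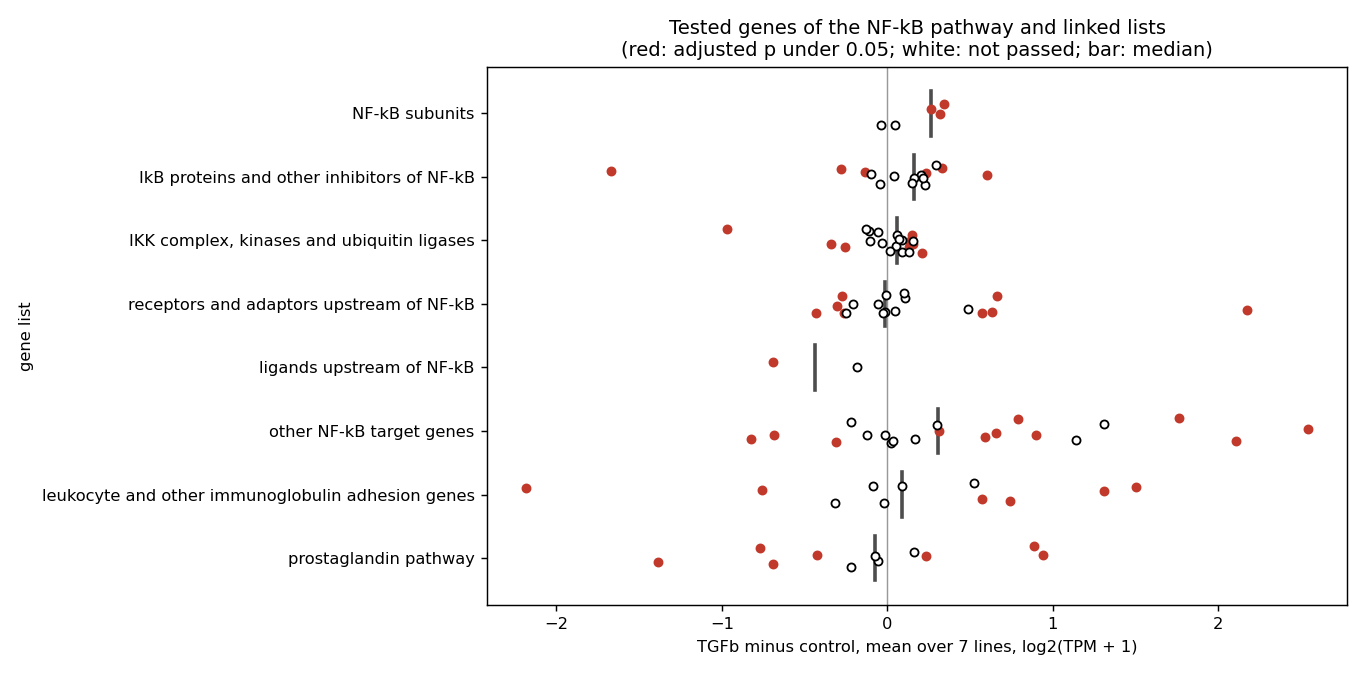
TGFβ minus control on the log2(TPM + 1) scale for the tested genes of 8 lists of NF-kB components, targets, adhesion and prostaglandin genes, with 1 point per gene, red where the adjusted p was under 0.05, and a bar at the list median. Each of the lists with more than 2 tested genes holds points on both sides of 0, and the medians run from -0.44 for the 2 ligand genes to 0.31 for other targets.

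Leukocytes and endothelium are known for high levels of several of these transcripts, and most of their markers were at or near 0. Of 12 leukocyte and macrophage markers 4 reached a mean of 1 TPM, Adgre1, Cd3e and Tyrobp were listed at 0 in all 14 libraries, and Ptprc, the pan-leukocyte marker, was at no more than 0.545 TPM. Their summed level was 26.2 to 89.7 TPM in control cells and 18.1 to 49.5 with TGFβ. Of the 4, Lyz2 averaged 35.3 TPM (8.38 to 86.8), Cd68 4.61, Csf1r 1.82 and Fcer1g 1.68. With TGFβ, Cd68, Csf1r and Fcer1g rose and Lyz2 fell. Of 10 endothelial markers only Esam reached 1 TPM, with sums of 1.40 to 3.58 TPM in control cells and 2.21 to 5.15 with TGFβ and with Pecam1 at no more than 0.298.

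Fibroblast and lens markers also moved with TGFβ, and their part in the result was not tested. Of 8 fibroblast markers 5 were tested and Pdgfrb, Col1a1 and Col1a2 rose, with sums of 88.6 to 879.9 TPM in control cells and 165.3 to 711.1 with TGFβ and with Lum and Thy1 listed at 0 throughout. Of 10 tested lens epithelial markers 8 fell, with sums of 794.2 to 2743 TPM in control cells and 648.9 to 1184 with TGFβ.

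Finally, the genes whose profiles over the 14 libraries lay nearest to those of single members were found among 9849 genes by the root mean square difference of centred log2 values. For Vcam1, whose own profile had an SD of 1.66, these were Akr1c14 at 0.85, Aldh3a1 at 0.86 and Hpse at 0.91. Akr1c14 and Aldh3a1 encode enzymes that act on steroids and aldehydes, and Hpse encodes heparanase. For Nfkbia (SD 0.50) the nearest were Sh3bp2 at 0.17, Kdsr at 0.18 and Hyal2 at 0.20, and for Ptgs2 (SD 0.82) they were Fkbp11 at 0.32, Pycr1 at 0.38 and Zfp9 at 0.50. None of these 9 genes is a member of the lists above. For Birc3 (SD 0.43) the nearest was Rnf149 at 0.22. For Icam1 the nearest was Zc3h11a at 0.08, beside an SD of its own of only 0.12, since Icam1 was near 0 in all libraries.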

How the data were processed

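RNA sequencing covered 14 cultures, whose titles give line and treatment. The submitters' processing notes name GRCm39, STAR 2.7.6a, StringTie 2.0.4 and edgeR without roles. For strandedness and annotation release, the sources used here give nothing. The tables hold TPM as deposited by the authors, FPKM as deposited by the authors, and coverage (a signal per base) per the file headers. Read counts are not among the values, so count models were left out, and coverage per FPKM served as the measure of depth. Values that share a gene identifier were summed. No libraries held identical values.

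The members and gene lists were chosen with earlier results of these data known. TPM was analysed as log2(TPM + 1) for the 12927 genes that averaged 1 TPM or more. Differences on this scale understate changes of low genes. For TGFβ, limma 3.58.1 (R 4.3.3, intensity trend; statmod 1.5.0 for a random block) took the line as a block, so the p-values measure the spread between lines. A line label pairs its libraries. After subtraction of treatment means, both libraries of a line correlated across genes with r between 0.614 and 0.845, and libraries of different lines with r of at most 0.275. S133A, K and R314A were fitted on line means and the interaction on line differences of the 6 CREB lines. Two-sided p-values were adjusted over all tested genes by Benjamini and Hochberg, at a threshold of 0.05. Comparisons with 1 library per side are values and counts past 2-fold among the 10530 genes that averaged 5 TPM or more. The TGFβ, S133A and interaction fits were tested on simulated data, and the K and R314A estimates were not. There the S133A and interaction fits missed most changes of 2-fold, and the S133A fit also most of 4-fold.

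All members were named, and so were the subunit genes, in each list up to 3 other tested genes with the smallest p for TGFβ, and for 5 members the 3 genes with the nearest profile. Ligands, receptors and adhesion partners named at or near 0 were chosen after their values were seen. Promoters are RefSeq's, on GRCm38.p6. The alternatives were pseudocounts of 0.1 and 5, median-of-ratios scaling, FPKM, no filter or one at 5 TPM, no trend, single lines left out, fits without the block, without the K and R314A terms or with a random block, control or TGFβ libraries alone and, added after the data were seen, the 3 lines in which Creb1 was at least at the Vector level.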

Additional observations from a re-analysis of the deposited data

Results flagged for a closer look

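The TGFβ difference of Relb in WT-CREB stood apart from those of the other 6 lines. It was -0.07 on the log2 scale, while the others lay between 0.31 and 0.55, and its gap to the nearest line was 0.603 of the whole range, above Dixon's critical value for 7 values. It was the only such case in 24 groups of 7 values, and chance alone would give about 1 in 20 groups. Nfkbia, Nfkb2, Tnfrsf9 and Ptgs2 had their lowest difference in the same line without passing this limit.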

How the results depend on the processing

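The number of members that passed for TGFβ was 5 in the fit with the line as a block and 1 without the replicate block, where the number that rose went from 4 to 0. Without the block the limma adjusted p was 0.0941 for Nfkbia, 0.12 for Nfkb2, 0.317 for Relb and 0.144 for Ptgs2, and Vcam1 still passed at 0.0482. With single lines left out the count was 5 to 6, with 4 to 5 that rose and 1 that fell. The sixth was Tnfrsf9 without WT-CREB, and it also passed in the 3 lines with Creb1 at or above Vector (1.09, adjusted p 0.0159). Over 16 alternatives Vcam1 ran from -2.32 to -1.77 (adjusted p 5.75e-06 to 0.0482), Nfkbia from 0.53 to 0.82 (5.76e-04 to 0.0941) and Ptgs2 from 0.75 to 1.43 (0.00213 to 0.144). For K, 0 members passed in the line means and 3 with all 12 libraries and a random block, a fit that adds no lines. Directions turned for Nfkb1 with TGFβ in the 3 lines (-0.0082, adjusted p 0.957; over the alternatives 0.333 to 0.957) and for Nfkb2 with R314A without R314A-CREB (-0.0337; 0.279 without S133A/R314A-CREB). Of 96 values against Vector 22 were past 2-fold (21 to 25 under 3 alternatives), and of 56 TGFβ differences in single lines 12 were (9 to 12). The median of all genes moved by -0.02 with median-of-ratios scaling and by -0.01 with FPKM. With 1 library per line and treatment and no read counts, levels near 0 TPM and differences of single lines have no error here.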
